A study of Homo sapiens with 4 samples.

Results

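The 9 genes described here are markers of the luminal state of the bladder lining, and FOXC1 peaks were examined at each of them in J82, a line of human bladder cancer cells. They comprise 5 genes for transcription factors (GATA3, PPARG, FOXA1, ELF3 and KLF5) and 4 genes for uroplakins (UPK1A, UPK1B, UPK2 and UPK3A), out of 20163 protein-coding genes annotated on chromosomes 1 to 22, X and Y. A peak was assigned to a gene when its summit, the position of highest read pileup, lay in the gene body or within 50 kb of it. The data came from FOXC1 chromatin immunoprecipitation with sequencing (ChIP-seq) of J82 cells in 2 biological replicates, pulled down by the antibody D8A6 against FOXC1, and from 2 libraries without antibody (input) that served as the controls for peak calling. Both groups were the same cell line, cultured in DMEM with fetal bovine serum, with no drug or knockout named in the labels. The list of replicate 1 held 22405 peaks and that of replicate 2 held 41789, from about 43200000 and 41500000 ChIP reads. The lists held no expression values, so whether J82 cells were luminal or basal was not measured, and neither was the copy number of the loci.

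The urothelium is a stratified epithelium whose surface is covered by umbrella cells. Uroplakins are membrane proteins that assemble into plaques on the apical side of these cells: UPK1A and UPK1B are tetraspanins, which pair with UPK2 and UPK3A, respectively. GATA3, the nuclear receptor PPARG and the forkhead factor FOXA1 are known as regulators of luminal differentiation, ELF3 is an epithelial ETS factor, and KLF5 is a zinc-finger factor of epithelial cells. FOXC1, like FOXA1, belongs to the forkhead family, whose members recognise related AT-rich sequences.

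FOXC1 peaks were found around the luminal transcription factor genes more densely than around the uroplakin genes. The windows of the 5 transcription factor genes (715 kb in all) held 14 peaks of replicate 1 and 40 of replicate 2, and the windows of the 4 uroplakin genes (488 kb) held 2 and 4. Peaks of the replicates that overlapped by at least 1 bp were merged into shared regions, of which 11 lay in the transcription factor windows and 2 in the uroplakin windows. Per 100 kb of window, this was 1.54 shared regions for the transcription factors and 0.410 for the uroplakins, compared with 0.519 over the windows of all coding genes. The uroplakin windows also differed in their surroundings, with 17 other coding genes in them compared with 6 in the transcription factor windows, and the part of this in the difference was not tested. With 1 peak list per replicate and genes that are not replicates of a condition, no test of the difference was made. The transcription factor genes held 0 to 6 shared regions each and the uroplakin genes 0 or 1, so that the groups overlapped. PPARG held 6 of the 11, and without it the other transcription factor genes had 5 shared regions, or 1.07 per 100 kb.

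At least 1 shared region was found at 6 of the 9 genes: GATA3, PPARG, FOXA1, ELF3, UPK1B and UPK3A. Of all coding genes, 46.6% had one by the same rule, so that a count of 6 among 9 is not far from the background. Among the 8 genes with bodies of at most 35 kb (all but PPARG), 5 had one, compared with 36.9% of coding genes of that size. Peaks of replicate 1 lay at 7 of the 9 genes (62.7% of coding genes) and peaks of replicate 2 at the same 7 (80.1% of coding genes). KLF5 had peaks in both lists but none that overlapped, and UPK1A and UPK2 had no peak in either list.

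**Figure D1:**
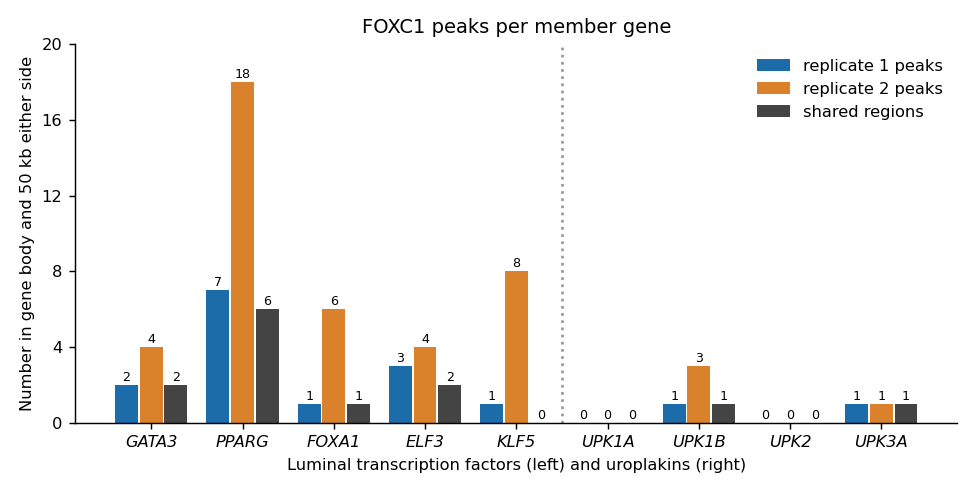
FOXC1 peaks in the gene body and within 50 kb for each of the 9 genes; bars give the number of replicate 1 peaks, replicate 2 peaks and shared regions. PPARG has the most in every class (7, 18 and 6), KLF5 has 8 replicate 2 peaks and no shared region, and UPK1A and UPK2 have none.

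Sequences are shown for the 8 shared regions that carried a forkhead word, since the values below refer to these words, and for the region 136.7 kb into PPARG, the highest ranked of the 5 that carried none. Each is the hg19 plus strand, 50 bases to either side of the summit of the shared region. Capitals mark the forkhead words, which are GTAAACA and GTAAATA and also ATAAACA and ATAAATA, and the words of the AP-1 family of transcription factors, TGACTCA and TGAGTCA, which are reverse complements of each other. All were searched on both strands, so that a capital TGTTTAT is ATAAACA on the minus strand. Regions are named by the distance of their summit from the annotated gene start or end.
GATA3, 5.44 kb into the gene, chr10:8092735-8092835: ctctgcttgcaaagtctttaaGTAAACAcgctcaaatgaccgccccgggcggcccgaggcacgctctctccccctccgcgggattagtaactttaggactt
PPARG, 7.84 kb into the gene, chr3:12336658-12336758: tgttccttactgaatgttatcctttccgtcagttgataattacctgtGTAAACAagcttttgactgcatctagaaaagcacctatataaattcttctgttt
PPARG, 136.7 kb into the gene, chr3:12465553-12465653: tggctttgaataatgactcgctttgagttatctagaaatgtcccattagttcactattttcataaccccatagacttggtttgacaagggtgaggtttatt
PPARG, 20.1 kb beyond the gene end, chr3:12495878-12495978: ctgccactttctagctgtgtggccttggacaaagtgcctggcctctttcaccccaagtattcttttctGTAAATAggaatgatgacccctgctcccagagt
ELF3, 21.3 kb downstream of the gene start, chr1:201998328-201998428: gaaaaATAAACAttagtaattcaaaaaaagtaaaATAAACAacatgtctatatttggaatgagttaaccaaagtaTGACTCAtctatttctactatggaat
ELF3, 55.4 kb downstream of the gene start, chr1:202032422-202032522: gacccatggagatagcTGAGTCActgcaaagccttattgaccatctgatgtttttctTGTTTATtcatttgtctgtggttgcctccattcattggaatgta
UPK1B, 24.8 kb upstream of the gene start, chr3:118867503-118867603: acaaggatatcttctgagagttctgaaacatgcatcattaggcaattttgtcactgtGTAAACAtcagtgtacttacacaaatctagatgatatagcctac
UPK3A, 17.3 kb downstream of the gene start, chr22:45698039-45698139: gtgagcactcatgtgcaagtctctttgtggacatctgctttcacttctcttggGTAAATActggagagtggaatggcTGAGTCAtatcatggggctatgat
The PPARG region 84.6 kb into the gene has its summit in untranslated sequence, and only 29 bases around that summit are shown.
PPARG, 84.6 kb into the gene, chr3:12413457-12413485: agtaaggatgggctggATAAACAagttgg

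GATA3 (chr10:8087341-8117161, plus strand) encodes a zinc-finger factor needed for luminal differentiation, and it held the strongest shared region of the 9 genes. This region, chr10:8092386-8093090, had a fold enrichment (the read pileup at the summit over the local background, as given by the authors) of 14.5 in replicate 1 and 21.5 in replicate 2, a mean of 18.0 ± 4.90 (SD, n = 2). The pileup was 74 reads in replicate 1 (95% exact Poisson interval 58.1 to 92.9) and 165 reads in replicate 2 (interval 141 to 192), and these intervals cover counting error only. The region ranked 675 of the 13238 shared regions, within the top 5.10%. Its summit lay in an exon of GATA3-AS1, a long non-coding RNA gene on the opposite strand, and inside the GATA3 gene body only because of a transcript that starts far upstream. The nearest GATA3 start site was 2782 bp from the summit, and that of another non-coding gene, ENSG00000232638, was 719 bp away. The region carried GTAAACA on the plus strand, centred 26 bp before the summit.

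The other peaks at GATA3 were weaker. A shared region 9.86 kb beyond the end of the gene, chr10:8126721-8127176, was enriched by 2.57 in replicate 1 (13 reads) and by 3.89 in replicate 2 (29 reads), and ranked 11871 of the shared regions. Replicate 2 alone listed 2 further peaks in GATA3 introns, 14.9 kb and 20.7 kb into the gene, with fold enrichments of 4.02 and 3.74. The first of these was 1873 bp from a GATA3 start site. Replicate 1 had no peak overlapping either.

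PPARG (chr3:12328867-12475855, plus strand) encodes the nuclear receptor PPARγ, and it held more peaks than any other of the 9 genes. Replicate 1 listed 7 and replicate 2 listed 18, which formed 6 shared regions in a window of 247 kb that held no other coding gene. That was 2.43 shared regions per 100 kb. The PPARG gene body is also the longest of the 9, at 147 kb. Among the 2163 coding genes with bodies of 100 to 200 kb, the median was 1 shared region, and 3.01% had 6 or more, which was also looked up after the PPARG count was known.

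Of the PPARG regions, 3 lay in the gene body and were similar in strength. The region 7.84 kb into the gene (chr3:12336269-12336989) lay in an intron, with fold enrichments of 7.35 and 17.0 in replicates 1 and 2 and 46 and 113 reads. The region 84.6 kb into the gene (chr3:12413023-12413827) lay in the untranslated part of an alternative PPARG exon, with fold enrichments of 6.30 and 18.7 and 48 and 126 reads. The region 136.7 kb into the gene (chr3:12465241-12466194) lay in an intron, with a PPARG transcript starting 470 bp from it and fold enrichments of 6.996 and 11.9 and 50 and 130 reads. Their means were 12.2 ± 6.81, 12.5 ± 8.80 and 9.42 ± 3.44 (SD, n = 2). These SDs include the higher fold enrichment in replicate 2, which 91.9% of all shared regions had. The region 136.7 kb into the gene had the lowest fold enrichment of the 3 in replicate 2 but not in replicate 1. The 3 regions ranked 1720, 1878 and 1667 of the shared regions, all within the top 14.2%. The summits of the replicates lay 1, 9 and 0 bp apart. The first carried GTAAACA and the second ATAAACA within 25 bp of the summit, whereas the one 136.7 kb into the gene carried a forkhead word only when the search was widened to 100 bp.

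The PPARG regions outside the gene body were weaker. One lay 19.9 kb upstream of the gene (chr3:12308787-12309196), with fold enrichments of 4.23 and 6.23 and no forkhead word. Another lay 20.1 kb beyond the gene end (chr3:12495527-12496168), with fold enrichments of 2.66 and 3.93 and the word GTAAATA. The last, 42.1 kb beyond the gene end (chr3:12517650-12518259), had fold enrichments of 5.74 and 7.47. Replicate 2 listed 12 more peaks in the window without a replicate 1 partner, with fold enrichments of 2.34 to 4.01 and 12 to 26 reads. Of these, 4 were within 2 kb of 1 of the 31 annotated PPARG start sites. None of the 12 reached a −log10 q (the p-value of the peak corrected for multiple testing by the authors' peak caller) of 5. Their values ran from 0.453 to 4.92.

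FOXA1 (chr14:38058757-38065264, minus strand) encodes a pioneer factor of the same forkhead family as FOXC1, and no peak of either replicate lay in its gene body. The only shared region in its window, chr14:38036213-38036584, lay 22.3 kb beyond the gene end, in an intron of MIPOL1 and 132 bp from the start site of the non-coding gene ENSG00000259087. Replicate 1 gave it a fold enrichment of 2.97 from 18 reads and replicate 2 one of 5.12 from 29 reads, a mean of 4.04 ± 1.52 (SD, n = 2). It carried no forkhead word within 50 bp. Replicate 2 alone listed 5 further peaks, with fold enrichments of 2.05 to 3.78. The strongest of them, chr14:38057785-38058270, lay just beyond the 3′ end of FOXA1 and 5435 bp from its nearest start site. The peak closest upstream of the gene, chr14:38068752-38069021, lay 3507 bp from the FOXA1 start site with a fold enrichment of 2.47.

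ELF3 (chr1:201977073-201986311, plus strand) held the second strongest region of the 9 genes. The region chr1:201998023-201998722 lay between genes, 12.1 kb beyond the gene end and 15472 bp from the nearest ELF3 start site, with a start site of the non-coding gene ENSG00000232296 at 644 bp. Its fold enrichment was 9.68 in replicate 1 and 22.2 in replicate 2 (mean 16.0 ± 8.87, SD, n = 2), with 49 reads (interval 36.3 to 64.8) and 123 reads (interval 102 to 147). It ranked 1300 of the shared regions. A second shared region, chr1:202032323-202032695, lay 46.2 kb beyond the gene end with fold enrichments of 3.10 and 6.11 and 16 and 31 reads. Both ELF3 regions carried ATAAACA as well as an AP-1 word, as the sequences above show, and the stronger carried ATAAACA at 2 positions. No peak lay in the ELF3 gene body. The nearest was a replicate 2 peak 1.64 kb beyond the gene end, with a fold enrichment of 4.39, a −log10 q of 5.62 and a forkhead word.

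**Figure D2:**
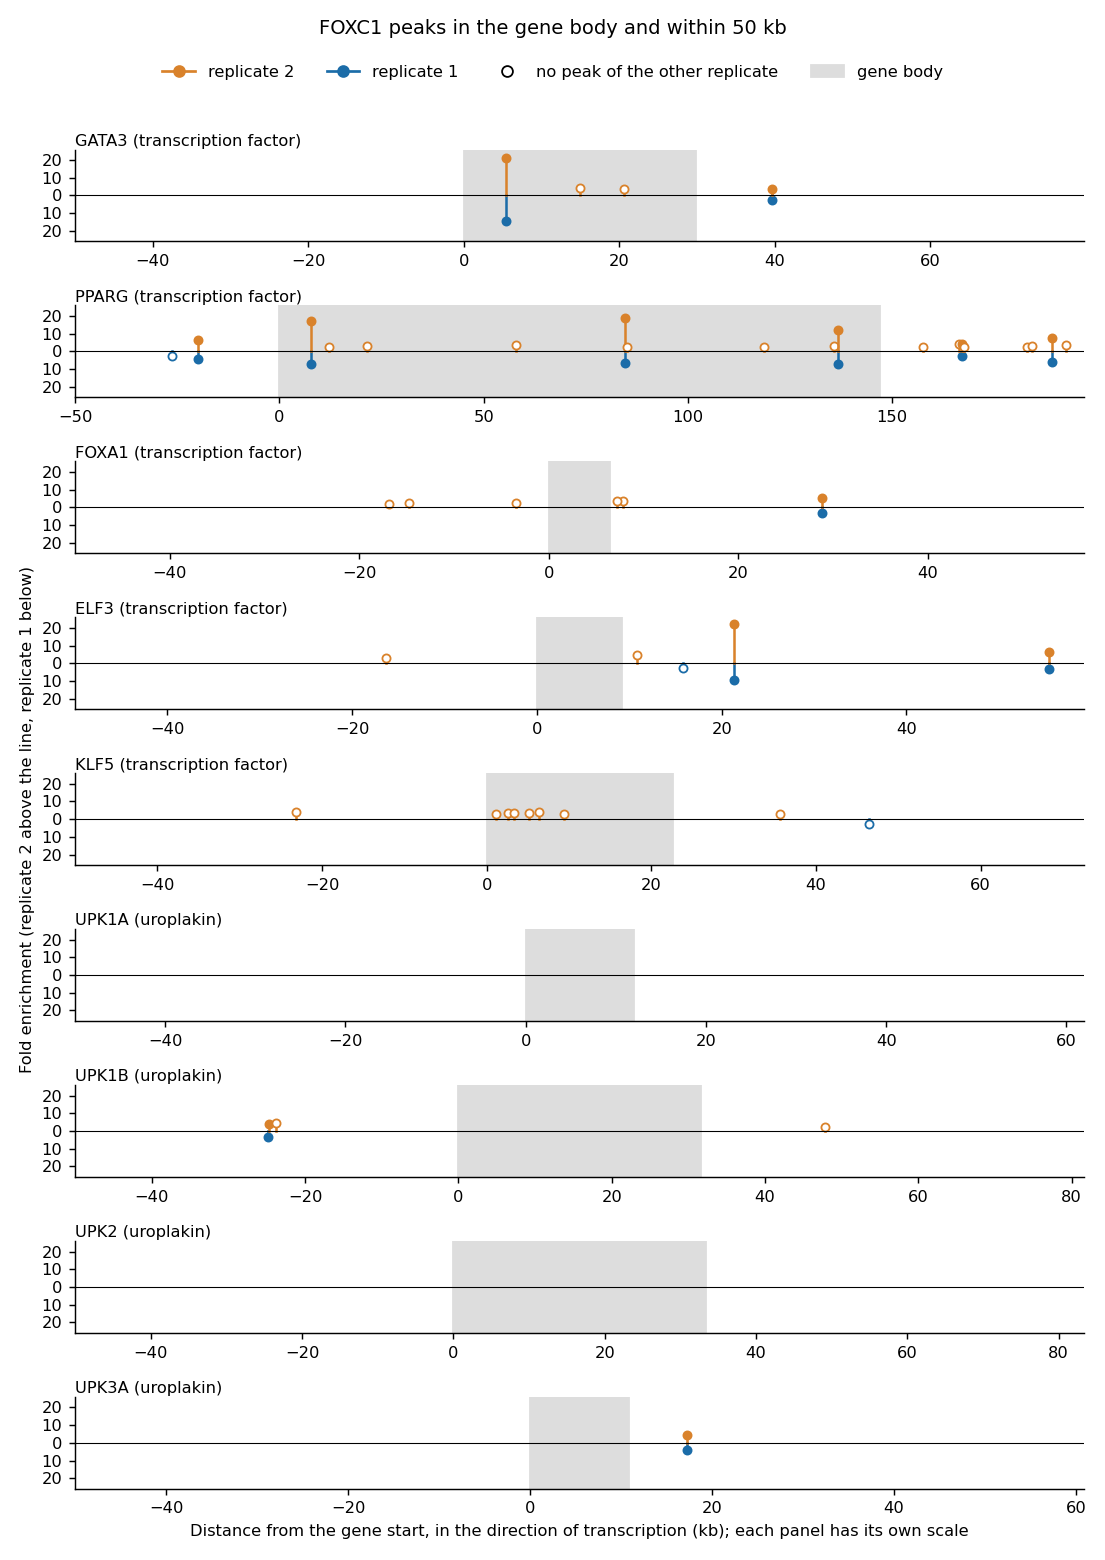
Positions and fold enrichments of all FOXC1 peaks in the 9 windows; the x axis is the distance from the gene start in kb, grey marks the gene body, replicate 2 is drawn above the line and replicate 1 below, and open circles are peaks without a partner in the other replicate. The tall paired peaks stand at GATA3, PPARG and ELF3, and the 6 peaks in the KLF5 gene body are all open circles of replicate 2.

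KLF5 (chr13:73629114-73651679, plus strand) was the one transcription factor gene of the 5 without a shared region. Most of its peaks were in replicate 2, as at FOXA1. Replicate 2 also listed more peaks than replicate 1 at GATA3, PPARG, ELF3 and UPK1B, and over the genome (41789 compared with 22405). In the KLF5 window, replicate 2 listed 8 peaks. Of these, 6 lay in introns of the gene and within 8.24 kb of each other, from 1.16 to 9.40 kb after the gene start. Replicate 1 listed a single peak, 23.9 kb beyond the gene end, with a fold enrichment of 2.88, and it overlapped none of these. No shared region lay within 50 kb of the gene, and the nearest was 61.3 kb away. The 6 peaks in the gene had fold enrichments of 2.86 to 3.76 with 19 to 35 reads, and 5 of them were within 2 kb of a KLF5 start site. A −log10 q of at least 5 was reached by 3 of the 6, with values of 6.88, 6.48 and 6.03, and a forkhead word was found at 3. Of the 11469 coding genes with bodies of at most 35 kb, 0.0349% (4 genes, KLF5 included) held 6 or more replicate 2 peaks in the gene body, a comparison chosen after the KLF5 values had been seen. The local background at the 6 peaks was 5.17 to 8.96 reads, above the genome-wide 4.15 reads of that replicate. The peaks were weak compared with the strongest members, and without replicate 1 peaks there they rest on 1 library.

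At the uroplakin genes, no peak of either replicate lay in any of the 4 gene bodies (87.9 kb in all). All 4 bodies are at most 35 kb long, and of the coding genes of that size 23.5% had a peak of either replicate in the body, so that its absence was the usual case. The 5 transcription factor gene bodies (215 kb) held 4 peaks of replicate 1 and 18 of replicate 2, all of them at GATA3, PPARG and KLF5 and none at FOXA1 or ELF3. UPK1B (chr3:118892364-118923990, plus strand) had 1 shared region, chr3:118867226-118867804, 24.8 kb upstream of its start site. It lay in an intron of TEX55 and of the overlapping gene ENSG00000251012, whose start site was 1331 bp away. Replicate 1 gave it a fold enrichment of 3.51 from 23 reads and replicate 2 one of 4.21 from 35 reads, a mean of 3.86 ± 0.497 (SD, n = 2). The sequence carried GTAAACA. Beside it, replicate 2 listed a second peak with a fold enrichment of 4.30, and another, 16.1 kb beyond the gene end, with 2.37.

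UPK3A (chr22:45680830-45691755, plus strand) had 1 peak in each replicate, and they formed the shared region chr22:45697868-45698314, 6.33 kb beyond the gene end. Enrichment was 4.26-fold in replicate 1, from 21 reads, and 4.58-fold in replicate 2, from 23 reads, a mean of 4.42 ± 0.229 (SD, n = 2). The 2 fold enrichments were thus nearly equal here. Since 91.9% of all shared regions were higher in replicate 2, near equality is not in itself a sign of good reproducibility. By −log10 p, the peak ranked 6149 of 22405 in the list of replicate 1 and 15728 of 41789 in that of replicate 2. The nearest coding start site was that of FAM118A at 6760 bp, whereas the nearest UPK3A start site was 17217 bp away. The region carried GTAAATA and an AP-1 word.

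UPK1A (chr19:36157419-36169383, plus strand) and UPK2 (chr11:118795873-118829269, plus strand) had no peak of either replicate. From UPK1A, the nearest replicate 1 peak was 271 kb away, the nearest replicate 2 peak 69.7 kb and the nearest shared region 436 kb. From UPK2, the nearest replicate 1 peak was 184 kb away, the nearest replicate 2 peak 117 kb and the nearest shared region also 184 kb. The absence of a replicate 2 peak was not rare, with 19.9% of coding genes having none within 50 kb. At the genome-wide background of 4.16 reads in replicate 1 and 4.15 in replicate 2, the weakest listed peaks had 10 reads, so that weaker enrichment at UPK1A or UPK2 was not detectable from these lists. The annotated body of UPK2 includes a transcript that starts far upstream of its other start site.

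Fold enrichment was then compared across all 13 shared regions. The median of the replicate means was 6.60 in the transcription factor windows (range 3.23 to 18.0) and 4.14 in the uroplakin windows (3.86 and 4.42), compared with 5.23 for all shared regions. The ranges overlapped, and both uroplakin regions lay within the range of the transcription factor regions. When the peaks of 1 replicate were taken alone, paired or not, the difference of the medians turned to −0.22 in replicate 1 and −0.65 in replicate 2. All 13 regions had a higher fold enrichment in replicate 2 than in replicate 1, as did 91.9% of all shared regions. As a ratio of replicate 2 to replicate 1, the median was 1.69 in the transcription factor regions and 1.14 in the uroplakin regions (1.08 and 1.201), compared with 1.69 for all shared regions.

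**Figure D3:**
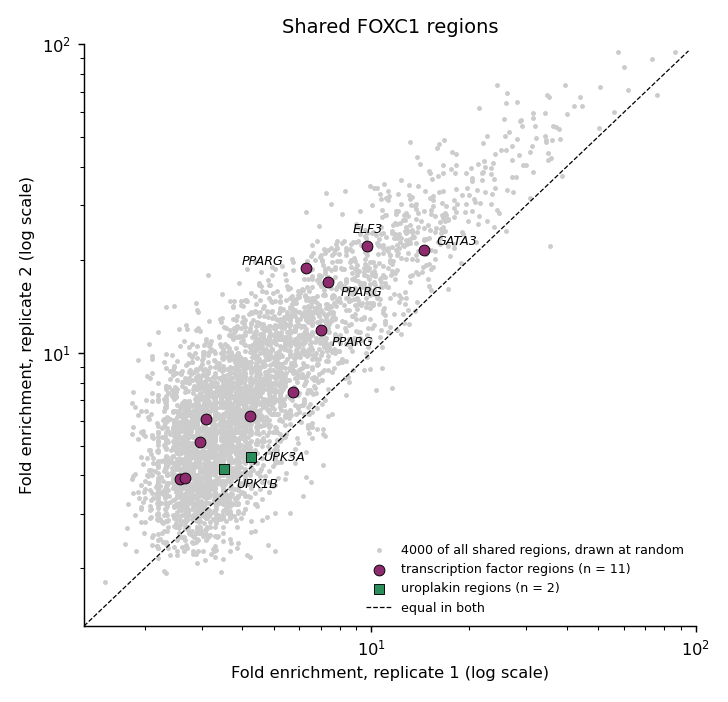
Fold enrichment of shared regions in replicate 1 (x axis) and replicate 2 (y axis), both on log scales; grey points are 4000 shared regions drawn at random, circles are the 11 regions at transcription factor genes and squares the 2 at uroplakin genes. All 13 lie above the dashed line of equal values, with GATA3, ELF3 and the 3 PPARG regions in the gene body highest.

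Reproducibility was assessed by the irreproducible discovery rate (IDR), which estimates the share of regions whose agreement between replicates is no better than that of noise. At an IDR of 0.05 or less, 7 of the 11 transcription factor regions and neither of the uroplakin regions were reproducible, compared with 45.2% of all shared regions. The 7 were 5 PPARG regions, with IDR values of 1.44e-05, 1.51e-05, 1.64e-05, 0.00616 and 0.0184, the strong GATA3 region at 1.29e-07 and the strong ELF3 region at 2.66e-06. The FOXA1 region had an IDR of 0.157, the UPK1B region of 0.228 and the UPK3A region of 0.360. The value at UPK3A was the highest of the 13 regions, despite its nearly equal fold enrichments. Thus 3 of the 9 genes, GATA3, PPARG and ELF3, had a reproducible region, and 26.8% of coding genes had one by the same rule.

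Which gene lay closest to a region depended on the start sites counted. The nearest start site of any coding transcript was that of the gene itself for 9 of the 11 transcription factor regions and for 0 of the 2 uroplakin regions. With the start sites of all annotated genes, non-coding ones included, the gene itself was nearest for 5 of the 13 regions, 4 at PPARG and 1 at GATA3. Summits within 2 kb of a start site of any annotated gene were found in 5 of the 13 regions, compared with 20% of all shared regions. Only the PPARG region 136.7 kb into the gene was that close to a start site of its own gene. PPARG has 31 annotated start sites, spread along its gene body, and the other genes have 2 to 9 each. By position, 4 of the 13 summits lay in introns, 7 between genes and 2 in exons.

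Forkhead words were found within 50 bp of the summit in 6 of the 11 transcription factor regions and in both uroplakin regions. The total of 8 of 13 (61.5%) is set beside 48.7% of all shared regions. In the window 500 bp downstream, used as a control, 0 of the 13 regions and 10.8% of all shared regions had one. An AP-1 word was found at 3 of the 13 summits (23.1%), both ELF3 regions and the UPK3A region, compared with 16.6% of all shared regions, and all 3 also had a forkhead word. No AP-1 word was found in the control windows of the 13, compared with 1.93% of those of all shared regions. The PPARG region 136.7 kb into the gene and the FOXA1 region were among the 5 with neither word, which says only that these letters are not in the window. Among the 31 replicate 2 peaks at the 9 genes that had no replicate 1 partner, 9 had a forkhead word (29.0%), compared with 33.3% of all such peaks.

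Other genes of the luminal and basal programmes were counted by the same rule. Of 17 further luminal genes, 12 had at least 1 shared region (46.6% of all coding genes), with 1.44 per 100 kb over their windows. They included KRT7 with 7 shared regions, KRT20 with 5 and RXRA, the dimer partner of PPARG, with 3, whose strongest had fold enrichments of 24.4 and 73.4. KRT8 and KRT18 are neighbours and had 4 and 3, some of them the same regions. Both genes are among the 12, and the 1.44 per 100 kb counts their common regions and common window for each gene. The 5 without a shared region were KRT19, ERBB2, XBP1, GPX2 and UPK3B, and GPX2 and the uroplakin gene UPK3B had no peak of either replicate. Of 8 basal genes, 4 had a shared region, with 0.819 per 100 kb: CD44 with 5, EGFR with 4, TP63 with 2 and CDH3 with 1. KRT5, KRT6A, KRT14 and KRT16 had none. Windows differ in length and no test was made between the lists.

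**Figure D4:**
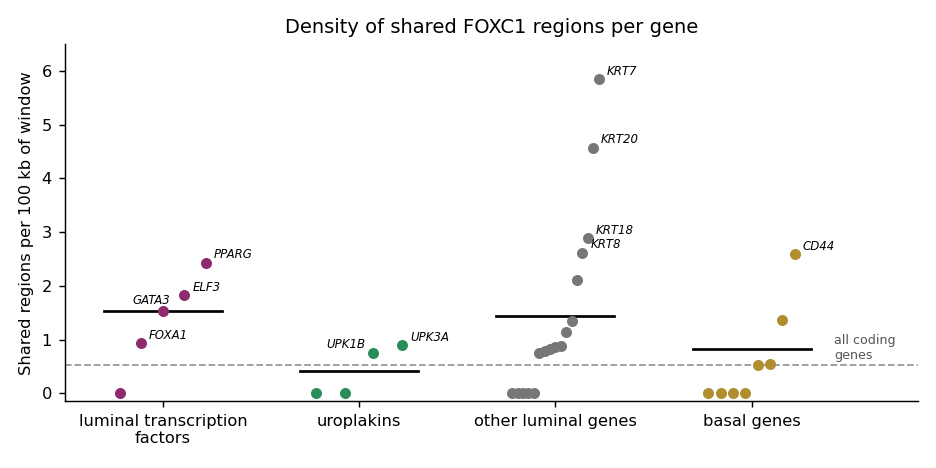
Shared FOXC1 regions per 100 kb of window for each gene (points) in 4 lists, with the value over the whole list as a black line and that over all coding genes as a dashed line at 0.519. The transcription factors lie between 0 and 2.43, the uroplakins between 0 and 0.902, and KRT7 is highest at 5.85.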

How the data were processed

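The authors performed FOXC1 ChIP-seq of J82 cells in 2 biological replicates and 2 input libraries, sequenced as 75-bp single-end reads. Per the study's methods and the submitters' processing notes, reads were mapped to hg19 by bwa, and MACS2 2.2.7.1 called peaks against input, 1 list per replicate. The study also called a set of reproducible peaks with the IDR tool. That set was not used here, and the regions called reproducible here may differ from it. The limit that produced the list of each replicate is not given in the sources used here. The lowest −log10 p was 2.00 in replicate 1 and 2.02 in replicate 2. Some listed peaks had a low −log10 q, such as 0.312 at UPK1B and 0.370 at FOXA1, both in replicate 2. The score deposited by the authors is 10 times the −log10 p. The fold enrichment deposited by the authors is a ratio of pileup to local background, each plus 1. The −log10 p and −log10 q deposited by the authors belong to the summit. Input files were not analysed here.

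Entries outside chromosomes 1 to 22, X and Y were left out (42 and 43), and genes were taken from GENCODE version 44 lifted to GRCh37, which is the hg19 assembly (the study used version 19). Whole reads at each summit were solved from the −log10 p and the fold enrichment (residual under 0.001), which succeeded for 100% of peaks in both lists. Read totals assume a 2.7 Gb genome and fragments of 260 and 270 bp. Peaks that overlapped between replicates formed 1 shared region, with the summit midway, ranked by the worse rank by −log10 p. IDR code written for this purpose was checked on simulated data. Python 3.11.15, pandas 2.3.3, scipy 1.17.1 and pysam 0.24.0 were used. All 9 genes, their strongest shared region, regions in gene bodies or within 2 kb of a start site and the strongest unpaired peaks were named. The groups came from sample titles. The members and lists were chosen with earlier results of these data known.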

Additional observations from a re-analysis of the deposited data

How the results depend on the processing

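Replicates were processed from 1 list each, and 59 alternative values were computed, 57 of them planned and 2, without PPARG, added after seeing the data. Of these, 31 stayed the same (within 1.5 times the count, or within the spread between replicates for a difference), 26 moved and 2 reversed. The number per gene counted as the same if it was above 0. For the density difference of 1.13, the spread between replicates was 2.28. The label could therefore not show a fall short of a reversal, and 0.658 without PPARG counted as the same. The density per 100 kb was higher in transcription factor windows than in uroplakin windows under each of the 10 alternatives on that scale. For shared regions, the difference ran from 0.658 (without PPARG) to 1.86 (gene bodies only), and it was 1.7 per gene. With 1 replicate alone, all peaks of that list were counted in place of shared regions, and the difference reached 4.77 (replicate 2 alone). In gene bodies only, 4 shared regions were left at the transcription factors and 0 at the uroplakins, at 2 genes, and 3 had a forkhead word. At a −log10 q of at least 5, the counts were 7 and 1, with 5 forkhead words. At a fold enrichment of at least 5, they were 6 and 0, at 3 genes, with 4 forkhead words. At an IDR of 0.05 or less, they were 7 and 0, at 3 genes, with 4 forkhead words. Without PPARG, 5 shared regions were left at the transcription factors. The replicates alone gave 14 to 40 peaks at the transcription factors and 2 to 4 at the uroplakins, 7 to 17 forkhead words and a density difference of 1.55 to 4.77 per 100 kb. The difference in median fold enrichment, 2.46 in the report, was 5.28 with 25 kb either side, 3.87 with 100 kb either side, 7.74 at a −log10 q of at least 5 and 3.87 with an overlap of 50% of both peaks. It reversed in each replicate alone, to −0.22 and −0.65, where unpaired peaks enter, and it had no value where the uroplakins held no region. GTAAACA alone was found at 3 summits. With start sites of all annotated genes, 5 regions were nearest to their own gene. No paired analysis was possible because the input libraries have no peak list here and no result comes from a test. No listed peak at the genome-wide background had fewer than 10 reads, which limits what these lists can show.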
